A study of Homo sapiens with 12 samples.

Results

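The messenger RNAs described here are those of 10 human genes that write, bind or recruit methylation of lysine 9 of histone H3 (H3K9). They are the methyltransferase genes SUV39H1, SUV39H2, SETDB1, SETDB2, EHMT1 and EHMT2, the heterochromatin protein 1 (HP1) genes CBX1, CBX3 and CBX5, and the co-repressor gene TRIM28. They were taken by symbol from the 60708 gene identifiers of the deposited tables, each symbol matched 1 Ensembl identifier, and all 10 passed the filter on low counts that left 15388 genes for testing. The cells were hTERT RPE-1, a human retinal pigment epithelial cell line immortalised with telomerase. The 12 libraries came from 4 stable lines, each grown from 1 clone and sequenced as 3 biological replicates. The control lines mCherry_3 and mCherry_4 overexpressed the red fluorescent protein mCherry, and LmnB1_6 and LmnB1_16 overexpressed mCherry fused with lamin B1, which forms filaments under the nuclear envelope. Cells of all 4 lines were grown with hygromycin B and received doxycycline at 0.05 ug/mL for 24 hours, so the controls carried a transgene and had the drug too, and cells without either were not analysed here. The labels do not say which promoter drives the transgene. Each construct was present in 2 clones, so that a difference between constructs rests on 2 clones against 2.

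Methylated H3K9 marks silent chromatin, much of which lies against the nuclear lamina. SUV39H1 and SUV39H2 place the trimethyl mark on the repeats around centromeres, where HP1 proteins bind it through their chromodomain and in turn hold more methyltransferase. EHMT1 and EHMT2 (also called GLP and G9a) work as a pair and place mono- and dimethyl marks in gene-rich chromatin. SETDB1 is brought to transposons and zinc-finger genes by TRIM28 (KAP1), the common co-repressor of KRAB zinc-finger proteins, and HP1 is tied to the lamina by the lamin B receptor.

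Libraries held 20.6 to 29.5 M estimated counts. Levels are in CPM, counts per 1 M counts of the library after TMM scaling, for comparisons of 1 gene across libraries, and in the deposited TPM, which are divided by transcript length, for comparisons between genes. LMNB1 itself was at 77.2 to 169.3 CPM in the mCherry libraries and at 3126 to 4135 CPM in the LmnB1 libraries. Of 10 pigment epithelium markers, RPE65 and TYR had 0 counts in every library, 5 exceeded 1 CPM on average, and their summed level was 1229 to 1373 CPM in mCherry_3 and 910.3 to 985 in mCherry_4, against 592 to 639 in LmnB1_6 and 833 to 881 in LmnB1_16. KRT8 and KRT18 made up most of this sum, at 593 and 613 CPM in mCherry_3, with 324 and 291 CPM in LmnB1_6. SERPINF1 was at clone means of 0.200 to 1.43 CPM, highest in LmnB1_6. PMEL was at 4.54 and 1.20 CPM in mCherry_3 and mCherry_4 and at 2.09 and 0.815 CPM in LmnB1_6 and LmnB1_16. The pigment-cell regulators MITF and OTX2, named after their values were seen, were at 0.059 and 0 CPM in LmnB1_6. They were at 31.3 and 15.5 CPM in LmnB1_16, at 58.6 and 12.6 CPM in mCherry_3 and at 49.0 and 11.1 CPM in mCherry_4. Leukocyte markers (4 genes) summed to at most 0.344 CPM in any library, endothelial markers (4 genes) to at most 1.77 and muscle markers (4 genes) to at most 2.15, while the 4 neuronal and glial markers summed to 16.3 to 19.1 CPM in LmnB1_6 and to at most 2.58 elsewhere, through SNAP25.

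The start regions of the 3 methyltransferase genes whose RNA differed between the constructs, and the gap between CBX5 and its neighbour HNRNPA1, are shown as the annotated start regions of these members, since where transcription began was not measured. The sequences are RefSeq promoter windows on GRCh38.p14, trimmed to their longest stretch outside all exons of GENCODE 29, read 5′ to 3′ on the strand of the named gene. Capitals mark CCAAT or its reverse complement ATTGG, the box bound by NF-Y, found here in the CBX5 gap.
SUV39H1, chrX:48695304-48695553, plus strand: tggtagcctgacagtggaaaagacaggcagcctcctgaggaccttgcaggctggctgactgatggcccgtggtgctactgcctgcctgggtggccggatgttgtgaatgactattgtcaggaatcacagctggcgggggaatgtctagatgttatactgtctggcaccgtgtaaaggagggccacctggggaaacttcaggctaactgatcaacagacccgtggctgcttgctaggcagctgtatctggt
SUV39H2, chr10:14878687-14878819, plus strand: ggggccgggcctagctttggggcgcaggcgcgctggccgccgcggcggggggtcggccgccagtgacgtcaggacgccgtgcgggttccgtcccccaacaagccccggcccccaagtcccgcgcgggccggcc
EHMT2, chr6:31897699-31897784, minus strand: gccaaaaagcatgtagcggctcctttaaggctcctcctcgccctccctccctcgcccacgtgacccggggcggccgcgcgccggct
CBX5 to HNRNPA1 gap, chr12:54280134-54280192, minus strand: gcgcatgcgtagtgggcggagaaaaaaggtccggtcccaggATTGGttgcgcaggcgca

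Windows of 250 bases before the annotated start were held for 9 of the 10 members. Motifs found in many cell-cycle promoters were searched on both strands. Of the 9 members, 0 had a window with the E2F letters TTTCCCGC, TTTGGCGC, TTTGCCGC or TTTCGCGC, which occurred in 2.79% of the 35116 windows of all genes. The letters of the cell cycle homology region, TTTGAA or TTCGAA, were likewise in 0 of the 9 and in 14.3% of all windows. CCAAT was found before SUV39H1 (in the window of its downstream annotated start, not printed, which held 35 CpG against 5 in the printed window), SETDB2 and CBX5, and in 32.0% of all windows. These are matches of letters in short windows and say nothing about a factor's binding. CBX5 and HNRNPA1, which codes for an RNA-binding protein, have annotated starts 60 bases apart on opposite strands, so 1 printed gap of 59 bases holds the immediate upstream sequence of both.

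Measured per length, TRIM28 and the HP1 genes were the abundant members and SETDB2 the scarce one. Over the 12 libraries TRIM28 averaged 292 TPM, CBX3 193 TPM, CBX1 149.5 TPM and CBX5 62.4 TPM. Among the methyltransferases the mean was 37.6 TPM for EHMT1, 27.0 TPM for EHMT2, 19.1 TPM for SUV39H2, 16.7 TPM for SETDB1, 16.2 TPM for SUV39H1 and 2.77 TPM for SETDB2. Each gene from TRIM28 down to EHMT2 exceeded the next one in all 12 libraries, and SUV39H1 exceeded SETDB2 in all 12. SUV39H2, SETDB1 and SUV39H1 had no order common to all libraries. SUV39H2 was above SETDB1 in 9 of 12 libraries and SETDB1 above SUV39H1 in 4. The latter were every library of mCherry_3 (16.8 to 22.8 against 10.5 to 11.3 TPM) and replicate 3 of mCherry_4. In every LmnB1 library SETDB1 was below SUV39H1.

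**Figure D1:**
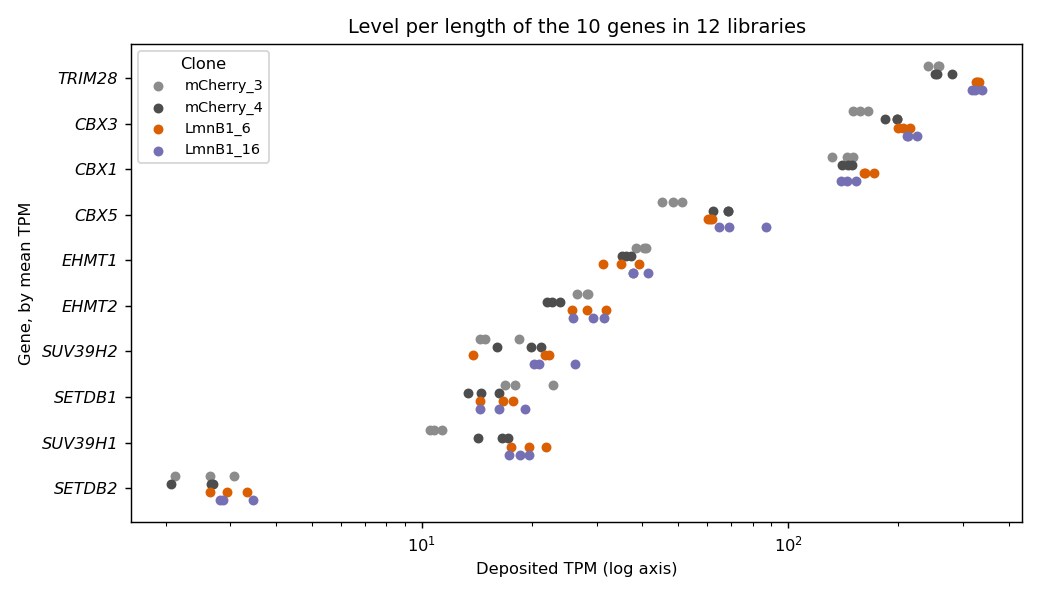
Deposited TPM (log axis) of each gene in the 12 libraries, coloured by clone and ordered by mean TPM. TRIM28 lies at 241 to 338 TPM and SETDB2 at 2.07 to 3.46 TPM, while the points of SUV39H2, SETDB1 and SUV39H1 share a range.

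Against the 6 mCherry libraries, RNA of SUV39H1, SUV39H2, EHMT2 and TRIM28 was higher in the 6 LmnB1 libraries, by 1.18-fold to 1.45-fold. CBX3 missed the threshold by a narrow margin, and SETDB1 and EHMT1 had fold changes next to 1. The test was edgeR's quasi-likelihood test, with calls made below 0.05 after Benjamini-Hochberg adjustment over the 15388 genes. It called 4 of the 10 members higher and 0 lower (6 and 0 at an unadjusted p under 0.05, 5 and 0 by DESeq2), where 17.8% of all genes tested were called, 8.58% higher and 9.25% lower. The members' median log2 fold change was 0.29, and that of all genes 0.00. These calls treat the 6 libraries of a construct as independent. With counts summed per clone, or with the clone as a random effect, 0 members were called, and libraries of a clone had a consensus correlation of 0.618. Libraries of the 2 constructs did not overlap for 2 members, EHMT2 and TRIM28, which was the case for 8.66% of all genes. In bulk RNA, fewer cells of a kind and less RNA per cell cannot be told apart.

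**Figure D2:**
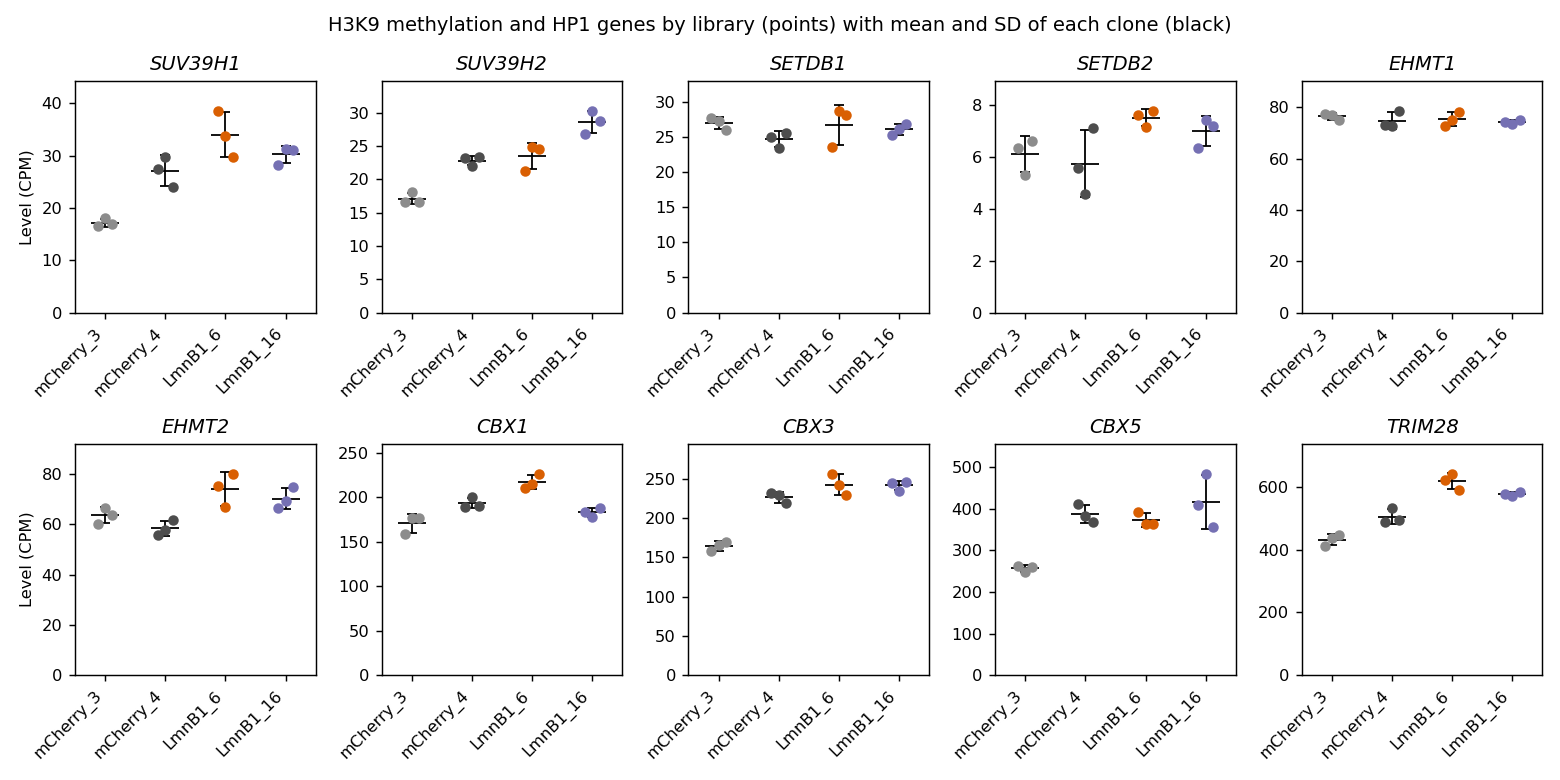
Level in CPM (y axis from 0) of each gene in each library, by clone, with the clone mean and SD (n = 3) in black. SUV39H1, SUV39H2, CBX3 and CBX5 are low in mCherry_3 (SUV39H1 at 16.6 to 18.1 CPM), while EHMT1 stays at 72.8 to 78.5 CPM in all 12 libraries.

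SUV39H1 (ENSG00000101945.17, chrX:48695554-48709012, plus strand, GENCODE 29 on GRCh38) encodes a methyltransferase that trimethylates H3K9 around centromeres. Its level was 16.6, 18.1 and 16.9 CPM in the libraries of mCherry_3 and 27.5, 29.8 and 24.0 CPM in those of mCherry_4. In LmnB1_6 it was 38.5, 33.9 and 29.8 CPM and in LmnB1_16 28.3, 31.3 and 31.1 CPM. All 3 mCherry_3 libraries were below every other library, and the ranges of mCherry_4 and the LmnB1 clones met, with 4 of 6 LmnB1 libraries above the highest mCherry library. The 6 LmnB1 libraries averaged 32.2 ± 3.62 CPM (SD, n = 6) and the 6 mCherry libraries 22.2 ± 5.77 CPM (SD, n = 6), a 1.45-fold difference (95% interval 1.16 to 1.83; log2 fold change 0.54, SE 0.15, edgeR adjusted p = 0.0317). The call was lost without mCherry_3 replicate 1, 2 or 3 (edgeR adjusted p = 0.0663, 0.0713 and 0.0690) and without LmnB1_6 replicate 1 or 2 (0.0716 and 0.0649). With all 3 mCherry_3 libraries left out the log2 fold change was 0.25 (edgeR adjusted p = 0.231).

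SUV39H2 (ENSG00000152455.16, chr10:14878820-14904315, plus strand), the paralog with the same activity, was also lowest in mCherry_3. Its level was 16.7, 18.1 and 16.5 CPM there and 23.2, 22.0 and 23.3 CPM in mCherry_4. It was 21.3, 24.8 and 24.5 CPM in LmnB1_6 and 26.9, 30.2 and 28.8 CPM in LmnB1_16. The libraries of LmnB1_16 were above all others, and those of LmnB1_6 overlapped mCherry_4. The LmnB1 libraries averaged 26.1 ± 3.24 CPM (SD, n = 6) and the mCherry libraries 19.95 ± 3.21 CPM (SD, n = 6), a 1.31-fold difference (95% interval 1.10 to 1.55; log2 fold change 0.39, SE 0.12, edgeR adjusted p = 0.0374). This call was lost without any one library of mCherry_3 (edgeR adjusted p = 0.0808, 0.0826 and 0.0832), any one of LmnB1_16 (0.0603, 0.0646 and 0.0669), and without LmnB1_6 replicate 2 or 3 (0.0624 and 0.0536). Without the clone mCherry_3 the log2 fold change was 0.20 (edgeR adjusted p = 0.325). On the deposited TPM it was 0.23 on the log2(TPM + 1) scale (limma adjusted p = 0.281), and the deposited effective length of this gene ranged from 1503 to 2122 bases between libraries. The summed TPM of both genes was 26.8 ± 2.56 (SD, n = 3) in mCherry_3 and 35.0 ± 2.31 in mCherry_4, against 38.9 ± 3.09 in LmnB1_6 and 40.9 ± 4.18 in LmnB1_16. SUV39H1 made up 40.7% ± 2.44 (SD, n = 3) of it in mCherry_3, 45.8% ± 5.28 in mCherry_4 and 45.3% ± 2.41 in LmnB1_16. In LmnB1_6 the share was 51.0% ± 9.07, with libraries from 44.7% to 61.4%, and the ranges of mCherry_4 and both LmnB1 clones overlapped.

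EHMT1 and EHMT2 act as partners, but their RNAs did not show the same result in the construct test. EHMT2 (ENSG00000204371.11, chr6:31879759-31897687, minus strand) was at 60.3, 66.7 and 63.9 CPM in mCherry_3 and 55.8, 57.8 and 61.6 CPM in mCherry_4. It was at 75.4, 66.9 and 80.1 CPM in LmnB1_6 and 66.7, 69.2 and 74.7 CPM in LmnB1_16. Every LmnB1 library was above every mCherry library, though the highest mCherry_3 library and the lowest LmnB1_16 library, both at 66.7 CPM when rounded, almost touched. The mean was 72.2 ± 5.41 CPM (SD, n = 6) against 61.0 ± 3.97 CPM (SD, n = 6), a 1.18-fold difference (95% interval 1.08 to 1.30; log2 fold change 0.24, SE 0.06, edgeR adjusted p = 0.0219). The call was lost without LmnB1_6 replicate 1 (edgeR adjusted p = 0.0503) and without the clone mCherry_4 or LmnB1_6 (0.0840 and 0.0965). On the deposited TPM, where the libraries of the constructs overlapped, the log2(TPM + 1) difference was 0.18 (limma adjusted p = 0.181).

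EHMT1 (ENSG00000181090.21, chr9:137618963-137870016, plus strand) had the most even level of all members. It was at 77.6, 77.1 and 75.0 CPM in mCherry_3 and 73.3, 72.8 and 78.5 CPM in mCherry_4, against 72.9, 75.2 and 78.3 CPM in LmnB1_6 and 74.2, 73.6 and 75.2 CPM in LmnB1_16. The 4 clones overlapped, and their means varied by 1.26% (coefficient of variation), against 10.5% for EHMT2 and 26.6% for SUV39H1. The construct fold was 0.989 with a 95% interval of 0.93 to 1.05 (edgeR adjusted p = 0.816). EHMT2 made up 40.9% ± 1.57 (SD, n = 3) of the TPM of the pair in mCherry_3 and 38.7% ± 0.641 in mCherry_4, against 44.9% ± 0.242 in LmnB1_6 and 42.5% ± 2.53 in LmnB1_16. The shares in the libraries of mCherry_3 (39.3% to 42.4%) and LmnB1_16 (40.7% to 45.4%) overlapped. The difference in response between EHMT1 and EHMT2 was not itself tested.

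For the SETDB pair no comparison between an LmnB1 and an mCherry clone passed the test. SETDB1 (ENSG00000143379.12, chr1:150926263-150964744, plus strand), the methyltransferase that works with TRIM28, was at 27.7, 27.3 and 26.0 CPM in mCherry_3 and 25.0, 23.4 and 25.6 CPM in mCherry_4. It was at 23.5, 28.7 and 28.1 CPM in LmnB1_6 and 25.3, 26.2 and 26.8 CPM in LmnB1_16, with overlap between the constructs. The construct fold was 1.02 (95% interval 0.93 to 1.13; edgeR adjusted p = 0.760). SETDB2 (ENSG00000136169.16, chr13:49444374-49495003, plus strand), a related gene at 109 to 231 counts per library, was at 6.35, 5.30 and 6.62 CPM in mCherry_3 and 5.55, 4.55 and 7.12 CPM in mCherry_4. In LmnB1_6 it was at 7.62, 7.16 and 7.75 CPM and in LmnB1_16 at 6.33, 7.42 and 7.18 CPM, so that 5 of the 6 LmnB1 libraries were above the highest mCherry one. Its fold was 1.22 (95% interval 1.02 to 1.47), which did not pass (edgeR adjusted p = 0.107). SETDB2 was called higher in LmnB1_6 than in mCherry_4 when mCherry_4 replicate 3 was left out (edgeR adjusted p = 0.0118, against 0.0655 with it).

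Of the HP1 genes, none was called between the constructs, and CBX3 and CBX5 were lower in mCherry_3 than in each of the other 3 clones. CBX3 (ENSG00000122565.19, chr7:26201162-26213356, plus strand) encodes HP1 gamma, which is found in both silent and transcribed chromatin. Its level was 158, 166 and 170.0 CPM in mCherry_3 and 232, 229.5 and 219 CPM in mCherry_4. It was 256, 243 and 229 CPM in LmnB1_6 and 245, 235 and 245 CPM in LmnB1_16. The mCherry_3 libraries were apart from all others, and the other 3 clones lay at 219 to 256 CPM. The construct difference was 1.24-fold (95% interval 1.07 to 1.44; log2 fold change 0.31, SE 0.10, edgeR adjusted p = 0.0501). It passed with RLE size factors (edgeR adjusted p = 0.0467), with DESeq2 (0.0186), with limma on TPM (0.0316) and without mCherry_4 replicate 1, 2 or 3 (0.0308, 0.0290 and 0.0466). Without the clone mCherry_3 its log2 fold change was 0.10 (edgeR adjusted p = 0.292), and without mCherry_4 it was 0.56 (6.61e-05).

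CBX5 (ENSG00000094916.16, chr12:54230940-54280133, minus strand) encodes HP1 alpha, the form held at constitutive heterochromatin. Its level was 264, 247 and 260.4 CPM in mCherry_3 and 411, 383 and 369 CPM in mCherry_4. It was 391, 363 and 363 CPM in LmnB1_6 and 410.3, 484 and 356 CPM in LmnB1_16. The values of mCherry_4 and both LmnB1 clones overlapped, and the mCherry_3 libraries were below them all. Between the constructs the difference was 1.22-fold (95% interval 0.99 to 1.51; edgeR adjusted p = 0.156), and without the clone mCherry_4 the log2 fold change was 0.62 (edgeR adjusted p = 0.00139), above the 0.29 with all clones. HNRNPA1, across the gap printed above, was at 879 and 1184 CPM in mCherry_3 and mCherry_4 and at 1453 and 1333 CPM in LmnB1_6 and LmnB1_16 (edgeR log2 fold change 0.43 ± 0.10 SE, adjusted p = 0.0166). Between LmnB1_6 and mCherry_4, CBX5 had a log2 fold change of -0.06 (edgeR adjusted p = 0.640) and HNRNPA1 one of 0.30 (0.00132). Between LmnB1_16 and mCherry_4 neither gene was called, at 0.10 (edgeR adjusted p = 0.476) and 0.17 (0.0792). Against mCherry_3 both genes were called higher in LmnB1_6 and in LmnB1_16. The difference between the 2 genes was not tested.

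CBX1 (ENSG00000108468.15, chr17:48070052-48101521, minus strand) encodes HP1 beta. Its level was 158, 176 and 176 CPM in mCherry_3 and 189, 199.5 and 190.4 CPM in mCherry_4. It was 211, 215 and 226 CPM in LmnB1_6 and 184, 177 and 188 CPM in LmnB1_16. The 3 LmnB1_6 libraries were the highest of the 12. Those of LmnB1_16 (177.1 to 187.8 CPM) lay narrowly above those of mCherry_3 (up to 176.4) and below those of mCherry_4 (from 188.9). LmnB1_16 was called against neither mCherry_3 nor mCherry_4 (edgeR adjusted p = 0.158 and 0.419). The construct fold was 1.10 (95% interval 0.99 to 1.23; edgeR adjusted p = 0.206), and without the clone LmnB1_16 the log2 fold change was 0.26 (edgeR adjusted p = 0.0219). The HP1 genes together gave 348 ± 18.3 TPM (SD, n = 3) in mCherry_3 and 405 ± 12.4 in mCherry_4, against 433 ± 4.90 in LmnB1_6 and 435 ± 25.3 in LmnB1_16. CBX1 made up 40.9% ± 0.908 of this sum in mCherry_3 and 33.5% ± 0.752 in LmnB1_16, with 35.8% ± 1.30 in mCherry_4 and 38.1% ± 1.41 in LmnB1_6. The share of CBX3 lay between 45.2% ± 0.232 in mCherry_3 and 49.6% ± 1.17 in LmnB1_16, and that of CBX5 between 13.9% ± 0.825 in mCherry_3 and 16.8% ± 1.71 in LmnB1_16.

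TRIM28 (ENSG00000130726.12, chr19:58544091-58550722, plus strand) had the smallest adjusted p of the 10 members between the constructs. Its level was 411, 437 and 446 CPM in mCherry_3 and 488, 532 and 493 CPM in mCherry_4. It was 622, 641 and 591 CPM in LmnB1_6 and 576, 571 and 584 CPM in LmnB1_16. Every LmnB1 library was above every mCherry library, and in CPM the clones followed each other from mCherry_3 through mCherry_4 and LmnB1_16 to LmnB1_6. LmnB1_16 and LmnB1_6 did not differ by the test (log2 fold change -0.10, edgeR adjusted p = 0.178), and averaged 327 and 328 TPM. On TPM the libraries of mCherry_3 (241 to 258) and mCherry_4 (251 to 280) overlapped. The mean was 597 ± 27.8 CPM (SD, n = 6) against 468 ± 44.2 CPM (SD, n = 6), a 1.28-fold difference (95% interval 1.16 to 1.41; log2 fold change 0.35, SE 0.07, edgeR adjusted p = 0.00595). The call held without any one of the 12 libraries, at edgeR adjusted p = 0.00329 to 0.0175. It was lost without the clone LmnB1_6 (log2 fold change 0.31, edgeR adjusted p = 0.0503).

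Contrasts between single clones, fitted with the 4 clones as groups, showed how far each difference held for each pair. The 4 contrasts of an LmnB1 with an mCherry clone share clones and are given side by side. LmnB1_6 against mCherry_3 had 7 of 10 members called, all higher, where 52.8% of all genes were called. LmnB1_16 against mCherry_3 had 5 members called higher, with 44.4% of genes called. Against mCherry_4 the counts were 4 members in LmnB1_6 (37.2% of genes called) and 3 in LmnB1_16 (15.7%), again all higher. TRIM28 was the 1 member called higher in all 4 contrasts, where 4.68% of all genes were called in 1 direction in all 4. Its log2 fold changes were 0.52 and 0.29 for LmnB1_6 against mCherry_3 and mCherry_4 (edgeR adjusted p = 5.88e-07 and 0.000387), and 0.42 and 0.19 for LmnB1_16 (1.00e-05 and 0.0216). The last of these was lost without mCherry_4 replicate 1 or 3 (edgeR adjusted p = 0.103 and 0.0832) or LmnB1_16 replicate 1 or 3 (0.0528 and 0.0661).

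EHMT2 was called in 3 of these contrasts, with log2 fold changes of 0.22 (LmnB1_6 against mCherry_3), 0.35 (LmnB1_6 against mCherry_4) and 0.27 (LmnB1_16 against mCherry_4), at edgeR adjusted p = 0.0169, 0.00129 and 0.0208. The first was lost without mCherry_3 replicate 1 (0.0723) or LmnB1_6 replicate 1 or 3 (0.0503 and 0.0931), and the last without mCherry_4 replicate 1 or 2 (0.0977 and 0.0680) or LmnB1_16 replicate 3 (0.0972), all as edgeR adjusted p. Against mCherry_4, SUV39H1 was called in LmnB1_6 (log2 fold change 0.33, edgeR adjusted p = 0.0160) and not in LmnB1_16 (0.16, 0.343). The call in LmnB1_6 was lost without mCherry_4 replicate 3 or LmnB1_6 replicate 1 (edgeR adjusted p = 0.0888 and 0.103). SUV39H2 was called in LmnB1_16 against mCherry_4 (0.33, edgeR adjusted p = 0.0123, and 0.0530 without mCherry_4 replicate 2) and not in LmnB1_6 (0.04, 0.716). By limma on log2(TPM + 1), SUV39H2 was not called in any contrast between clones. That test also did not call SUV39H1 in LmnB1_6 against mCherry_4 or EHMT2 in LmnB1_6 against mCherry_3. CBX1 was called in LmnB1_6 against mCherry_4 (0.17, edgeR adjusted p = 0.0247). That call was lost without mCherry_4 replicate 1 or 3 (edgeR adjusted p = 0.0899 and 0.0756) or LmnB1_6 replicate 2 or 3 (0.0528 and 0.0919). CBX3 and CBX5 were called against mCherry_3 in both LmnB1 clones and against mCherry_4 in neither, where their log2 fold changes were between -0.06 and 0.10.

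**Figure D3:**
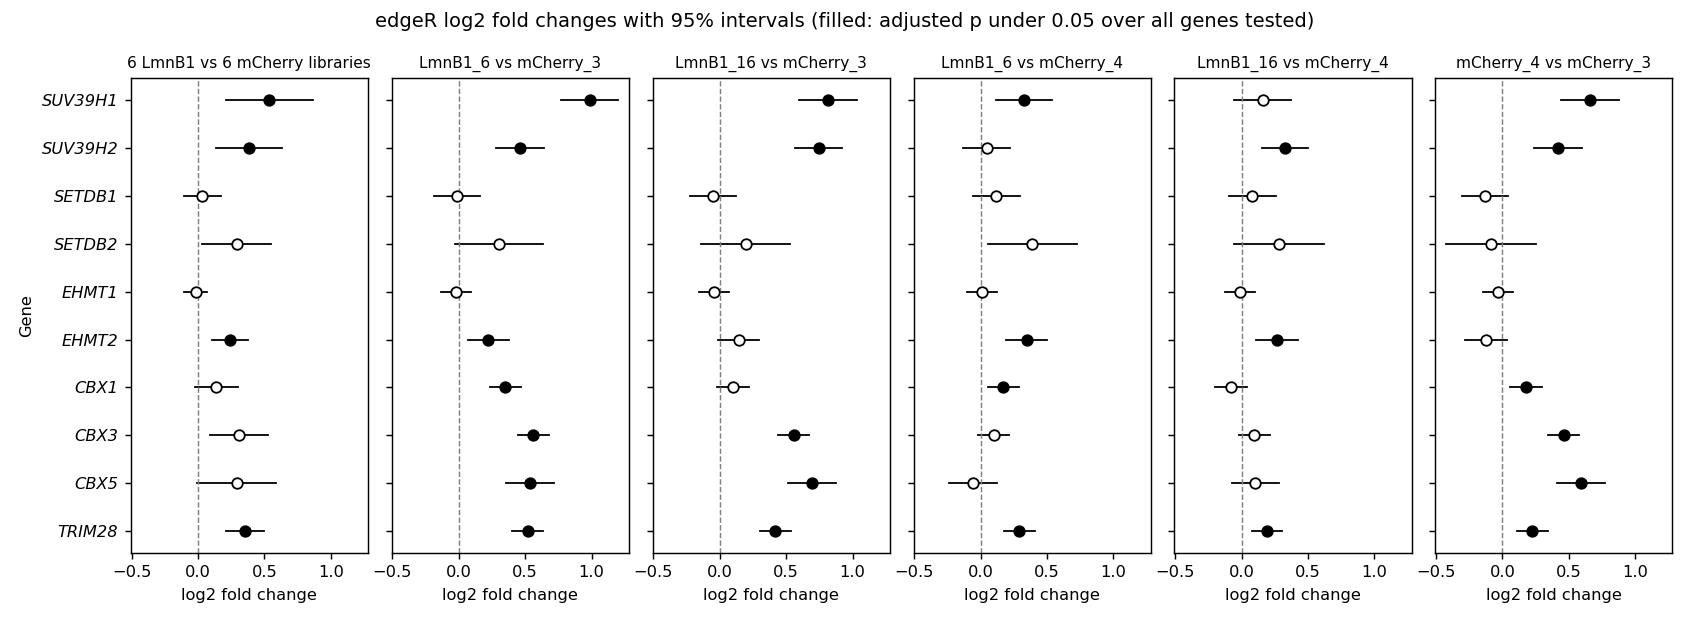
Log2 fold change (x axis) with its 95% interval for each gene in the construct comparison and 5 clone contrasts; filled points passed an adjusted p under 0.05 over all genes tested. The contrast of the control clones (right) holds 6 filled points, and TRIM28 is filled in every panel.

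The control clones themselves differed in these genes. In mCherry_4, 6 of 10 members were called higher than in mCherry_3 and 0 lower (6 and 0 at an unadjusted p under 0.05 and by DESeq2), where 37.4% of all genes were called and 19.9% were called higher. By limma on log2(TPM + 1), only SUV39H1, CBX3 and CBX5 were called higher. That test called EHMT2 lower, at 27.7 TPM in mCherry_3 and 22.8 TPM in mCherry_4. The edgeR log2 fold changes were 0.66 for SUV39H1, 0.59 for CBX5, 0.46 for CBX3, 0.42 for SUV39H2, 0.23 for TRIM28 and 0.18 for CBX1. For SUV39H1, SUV39H2, CBX1, CBX3 and CBX5 this difference between controls was larger than the log2 fold change between the constructs, while for TRIM28 it was smaller (0.23 against 0.35). The call of CBX1 was lost without mCherry_3 replicate 1 or mCherry_4 replicate 2 (edgeR adjusted p = 0.100 and 0.0775). Between the LmnB1 clones, where 34.4% of genes were called, SUV39H2 was higher in LmnB1_16 (log2 fold change 0.28, edgeR adjusted p = 0.0134) and CBX1 lower (-0.25, 0.00235). The first was lost without LmnB1_6 replicate 1 or LmnB1_16 replicate 2 (edgeR adjusted p = 0.0765 and 0.0504) and with limma on log2(TPM + 1). CBX5 was called higher in LmnB1_16 without its replicate 3 (edgeR adjusted p = 0.0132). A test for any difference among the 4 clones called 7 members, all but SETDB1, SETDB2 and EHMT1, where 63.1% of all genes were called.

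With single clones left out, the construct comparison called different members. Without mCherry_3 it called EHMT2 and TRIM28, with 4.32% of genes called, and without mCherry_4 it called SUV39H1, SUV39H2, CBX3, CBX5 and TRIM28, with 32.5% called. Without LmnB1_6 the 1 member called was SUV39H2 (8.38% of genes), and without LmnB1_16 the members called were SUV39H1, EHMT2, CBX1 and TRIM28 (31.7%). With counts summed per clone, 2 clones against 2, edgeR called 0 members and 0 of all genes, with 0 members and 642 genes at an unadjusted p under 0.05. With limma and the clone as a random effect, 0 members passed (4 at an unadjusted p under 0.05), with 1.06% of genes called. In both of these fits 9 of the 10 members had a positive fold change, and TRIM28 had an edgeR adjusted p of 0.778 in the first and a limma adjusted p of 0.105 in the second.

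Genes of S phase and mitosis were low in the same control clone as 6 of the members. The summed level of 12 such markers was 1616 to 1793 CPM in mCherry_3 and 2865 to 3108 in mCherry_4, against 2862 to 3280 in LmnB1_6 and 3267 to 3649 in LmnB1_16. All 12 were lowest in mCherry_3 and were called higher in mCherry_4 than in mCherry_3, as were 19.9% of all genes. Likewise 6 of the 10 members were lowest in mCherry_3, where 32.1% of all genes tested were. Between the constructs 4 of the 12 markers rose and 0 fell (10 and 0 at an unadjusted p under 0.05, 7 and 0 by DESeq2), where 8.58% of all genes were called higher and 9.25% lower, and their median log2 fold change was 0.52. The 4 were the helicase subunit genes MCM5, MCM7 and MCM2 and the sliding-clamp gene PCNA. MCM5 was at 117 and 149 CPM in mCherry_3 and mCherry_4 and at 179.9 and 193 CPM in LmnB1_6 and LmnB1_16 (edgeR log2 fold change 0.49 ± 0.09 SE, adjusted p = 0.00621). The calls of MCM5 and MCM7 held without any one of the 12 libraries. That of PCNA was lost without mCherry_3 replicate 3 (edgeR adjusted p = 0.0514), and that of MCM2 without mCherry_3 replicate 2 or 3 or LmnB1_6 replicate 1 (0.0539, 0.0580 and 0.0539). Against mCherry_4, 4 of the 12 markers rose and 1 fell in LmnB1_6 (median log2 fold change 0.12, 37.2% of all genes called). In LmnB1_16, 5 rose and 0 fell (0.18, 15.7%). Against mCherry_3 all 12 rose in both LmnB1 clones (52.8% and 44.4%). CDK1 was lower in LmnB1_6 than in mCherry_4 (log2 fold change -0.20, edgeR adjusted p = 0.0223). MCM2 was called against mCherry_4 in neither LmnB1_6 nor LmnB1_16 (edgeR adjusted p = 0.170 and 0.0531). The part of these markers in the members' differences was not tested.

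**Figure D4:**
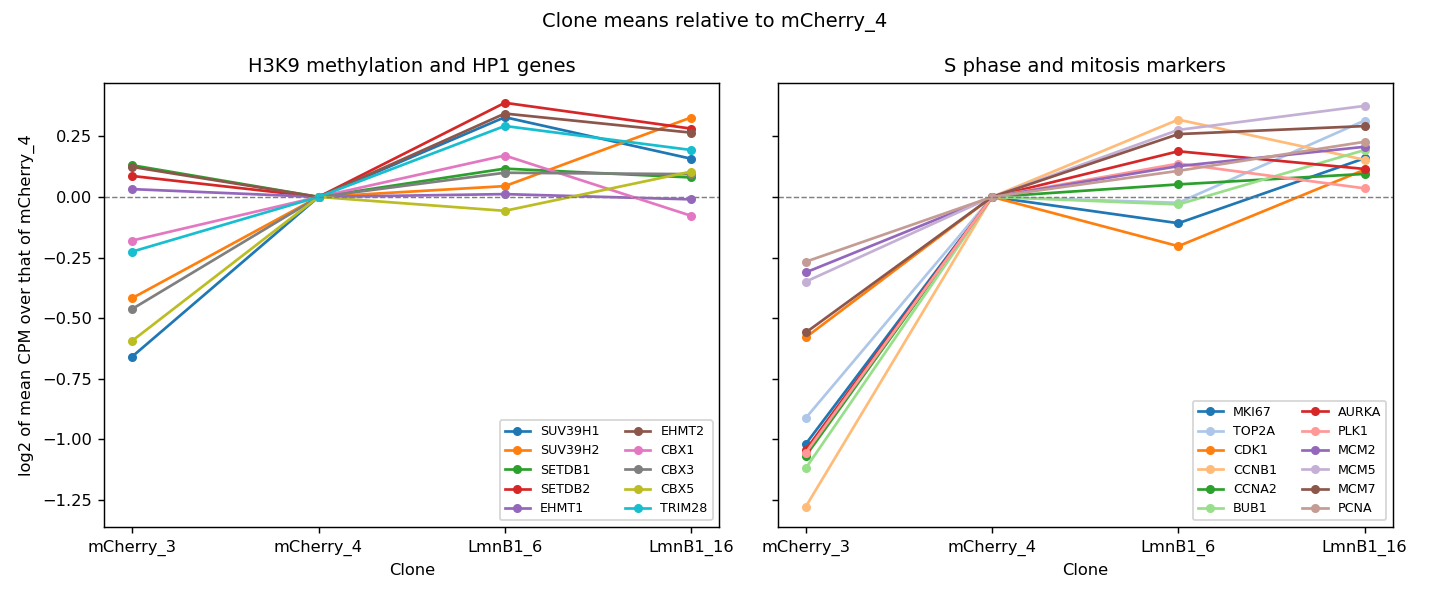
Clone means relative to mCherry_4 (y axis, log2 of the CPM ratio) for the 10 H3K9 and HP1 genes (left) and the 12 S phase and mitosis markers (right). In mCherry_3 all 12 markers lie below 0, as do 6 of the 10 genes on the left, while EHMT1, EHMT2, SETDB1 and SETDB2 lie above 0 there.

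Counts for the other genes of H3K9 writing, erasing and silencing are set beside the 8.58% of all genes called higher and 9.25% called lower between the constructs. Of 11 H3K9 demethylase genes, 1 rose and 0 fell (2 higher and 1 lower at an unadjusted p under 0.05, 2 and 0 by DESeq2), with a median log2 fold change of 0.11. In the clone contrasts 6 of the 11 rose and 0 fell in LmnB1_6 against mCherry_4 (37.2% of all genes called), and 1 rose and 2 fell in LmnB1_16 against mCherry_4 (15.7%). Against mCherry_3, 4 rose and 2 fell in LmnB1_6 (52.8%) and 4 rose and 3 fell in LmnB1_16 (44.4%). The gene called between the constructs was KDM3B, which encodes a demethylase of the JmjC family, at 87.5 and 83.8 CPM in mCherry_3 and mCherry_4 and at 94.8 and 97.5 CPM in LmnB1_6 and LmnB1_16 (edgeR log2 fold change 0.17 ± 0.05 SE, adjusted p = 0.0294). This call held in 7 of 12 fits that left out a library (edgeR adjusted p = 0.0265 to 0.0591) and was lost without mCherry_3 replicate 1, 2 or 3, mCherry_4 replicate 3 or LmnB1_6 replicate 2. KDM1A, the LSD1 demethylase, is named after its values were seen, at 64.2 and 142 CPM in mCherry_3 and mCherry_4 and at 163 and 150.4 CPM in LmnB1_6 and LmnB1_16, and was not called (edgeR log2 fold change 0.60 ± 0.23 SE, adjusted p = 0.0860). It was called in 4 of 24 alternatives, namely without mCherry_4 replicate 2 (edgeR adjusted p = 0.0454), without the clone mCherry_4 (log2 fold change 1.29, 9.44e-06), by DESeq2 (adjusted p = 0.0359) and with the mean of clones (2.37e-09). Of 7 genes for SETDB1 partners and the HUSH silencing complex, 0 rose and 1 fell (the same at an unadjusted p under 0.05 and by DESeq2). It was MORC2, an ATPase that works with HUSH, at 52.7 and 51.0 CPM in mCherry_3 and mCherry_4 and at 42.2 and 46.8 CPM in LmnB1_6 and LmnB1_16 (edgeR log2 fold change -0.22 ± 0.07 SE, adjusted p = 0.0468). Its call held in 2 of 12 fits that left out a library, those without mCherry_4 replicate 1 or LmnB1_16 replicate 2 (edgeR adjusted p = 0.0260 to 0.101 over the 12). MORC2 was called lower in LmnB1_6 than in mCherry_3 and mCherry_4 (edgeR adjusted p = 0.00421 and 0.0179). In LmnB1_16 it was called against neither (0.107 and 0.376). Of the 7 genes, 0 rose and 3 fell in LmnB1_6 against each control clone (52.8% and 37.2% of all genes called). In LmnB1_16, 0 rose and 2 fell against mCherry_3 (44.4%), and 0 were called against mCherry_4 (15.7%). None of the 3 EHMT1/EHMT2 partner genes was called between the constructs (0 at an unadjusted p under 0.05, 0 by DESeq2). WIZ, which links the EHMT pair to DNA, had a log2 fold change of 0.05 and ZNF644 one of 0.06. WIZ was called higher in LmnB1_6 than in mCherry_4 (0.22, edgeR adjusted p = 0.0126). It was called in no other contrast of an LmnB1 with an mCherry clone. Between the LmnB1 clones WIZ was lower in LmnB1_16 (-0.23, edgeR adjusted p = 0.0108). Of 3 PRDM-family genes 0 were called between the constructs (1 higher at an unadjusted p under 0.05, 0 by DESeq2). The log2 fold changes were 0.31 for MECOM, 0.13 for PRDM2 and -0.22 for PRDM16. MECOM was called higher in LmnB1_16 than in mCherry_3 and mCherry_4 (0.68 and 0.43, edgeR adjusted p = 7.27e-06 and 0.00186). In LmnB1_6 it was called against neither (edgeR adjusted p = 0.157 and 0.408). PRDM16, named after its values were seen, was called lower in LmnB1_6 than in mCherry_4 (log2 fold change -0.74, edgeR adjusted p = 5.03e-06). The construct fold change of PRDM16 turned sign without the clone LmnB1_6 (0.12).

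Among 11 genes for proteins that bind HP1, 2 rose and 0 fell (5 and 0 at an unadjusted p under 0.05, 4 and 0 by DESeq2), where 17.8% of all genes were called and 8.58% were called higher. Against mCherry_4, 2 rose and 0 fell in LmnB1_6 (37.2% of all genes called), and 0 rose and 1 fell in LmnB1_16 (15.7%). Against mCherry_3, 8 rose and 0 fell in LmnB1_6 (52.8%), and 6 rose and 1 fell in LmnB1_16 (44.4%). Between the controls, 5 were higher in mCherry_4 and 0 lower (37.4%). CHAF1A, the large subunit of the chromatin assembly factor CAF-1, was at 75.4 and 87.9 CPM in mCherry_3 and mCherry_4 and at 93.0 and 103 CPM in LmnB1_6 and LmnB1_16 (edgeR log2 fold change 0.27 ± 0.08 SE, adjusted p = 0.0431). The call of CHAF1A held in 3 of 12 such fits, those without mCherry_4 replicate 2 or 3 or LmnB1_6 replicate 3 (edgeR adjusted p = 0.0272 to 0.0895 over the 12). INCENP, which anchors the Aurora B kinase at centromeres, was at 57.4 and 94.5 CPM in mCherry_3 and mCherry_4 and at 109 and 104 CPM in LmnB1_6 and LmnB1_16 (edgeR log2 fold change 0.49 ± 0.15 SE, adjusted p = 0.0440). Its call held in the 3 fits without a library of mCherry_4 and was lost in the other 9 (edgeR adjusted p = 0.0220 to 0.0934 over the 12). Of the 3 TRIM28 paralogs TRIM24, also a nuclear co-regulator, rose, at 24.6 and 27.4 CPM in mCherry_3 and mCherry_4 and at 36.5 and 31.2 CPM in LmnB1_6 and LmnB1_16 (edgeR log2 fold change 0.38 ± 0.09 SE, adjusted p = 0.0170). All 3 genes that keep DNA methylation and bind or serve H3K9-marked chromatin were called higher between the constructs, though HELLS was not called in LmnB1_6 against mCherry_4. UHRF1, which reads both methylated H3K9 and hemimethylated DNA, was at 173 and 209 CPM in mCherry_3 and mCherry_4 and at 284 and 279 CPM in LmnB1_6 and LmnB1_16 (edgeR log2 fold change 0.56 ± 0.07 SE, adjusted p = 0.000574). DNMT1, the maintenance DNA methyltransferase, had a log2 fold change of 0.44 (edgeR adjusted p = 0.0137), and HELLS, a remodelling ATPase, one of 0.39 (0.0367). HELLS was at 36.8 and 49.8 CPM in mCherry_3 and mCherry_4 and at 50.7 and 62.8 CPM in LmnB1_6 and LmnB1_16. In LmnB1_6 against mCherry_4 its log2 fold change was 0.03 (edgeR adjusted p = 0.791). The calls of UHRF1, DNMT1 and TRIM24 held without any one of the 12 libraries. With counts summed per clone all 3 were lost (edgeR adjusted p = 0.778 for each). DNMT1 was also lost without the clone LmnB1_6 (edgeR adjusted p = 0.0535) and with the clone as a random effect (limma adjusted p = 0.0967). TRIM24 was lost without the clone mCherry_3 or LmnB1_6 (edgeR adjusted p = 0.167 and 0.117), on TPM and with the clone as a random effect (limma adjusted p = 0.0608 and 0.345). The call of HELLS was lost without any one library of mCherry_3 or LmnB1_16 (edgeR adjusted p up to 0.0819). The 3 maintenance genes, CHAF1A and INCENP were also called higher in mCherry_4 than in mCherry_3, with DNMT1 at 0.46, HELLS at 0.44 and INCENP at 0.72 on the log2 scale. For these last 3 the control difference was larger than the log2 fold change between the constructs.

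The protein-coding genes whose log2 CPM followed each called member most closely over the 12 libraries, of 11788 searched, are given as a description, by Pearson's r, since libraries of a clone are not independent. For SUV39H1 they were ATAD3A (r = 0.983), TMPO (r = 0.981) and SNRPD1 (r = 0.980), of which TMPO encodes a lamina-associated protein. For SUV39H2 they were HELLS (r = 0.977), NAA50 (r = 0.961) and C18orf54 (r = 0.960). For EHMT2 the closest were NFATC4 (r = 0.940), FAM161A (r = 0.929) and CLIP2 (r = 0.927), with lower correlations. For TRIM28 they were PCBP2 (r = 0.992), SRRT (r = 0.990) and TCF19 (r = 0.987), and the RNA-binding protein gene PCBP2 had clone means of 381, 442, 529.7 and 495 CPM in mCherry_3, mCherry_4, LmnB1_6 and LmnB1_16.

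Counting limits differed between the members. The labels do not say whether the counts used strand, and reads in exons shared with a gene on the other strand cannot be assigned. SETDB1 shares 948 of 7093 exon bases with CERS2, a ceramide synthase gene with a mean of 5455 counts per library against 639 for SETDB1. CBX3 shares 368 bases with HNRNPA2B1 (25643 counts on average, against 5288 for CBX3), and SUV39H2 shares 159 bases with the DNA repair gene DCLRE1C (376 counts against 555). Annotated pseudogene copies held at most 0.363% of the counts of CBX3 and its 10 named copies, 0.048% for CBX1 and 0.0435% for CBX5. Counts per library ran from 10806 to 17608 for TRIM28, 436 to 900 for SUV39H1 and 109 to 231 for SETDB2, and the intervals of SETDB2 were the widest of the 10 in the clone contrasts.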

How the data were processed

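Messenger RNA of 12 libraries was sequenced. The authors' deposited gene tables hold estimated counts, TPM and effective lengths. Per the submitters' processing notes the tools were STAR, Salmon and DESeq2 on GRCh38 (hg38). Versions, annotation release and use of strand were not given in the sources used here. The deposited estimated counts summed to 20.6 to 29.5 M per library. Of detected values 31.3% to 32.6% were not whole (tolerance 0.0005), and all were rounded. The deposited TPM, divided by effective length by the authors, were used for comparisons between genes.

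Counts were tested with edgeR 4.0.16 (R 4.3.3). filterByExpr by clone (minimum count 10, minimum total 15) kept 15388 genes, TMM factors were 0.948 to 1.06, and quasi-likelihood tests were two-sided with Benjamini-Hochberg adjustment over all genes. A first fit compared the constructs and another had the 4 clones as groups. Standard errors and 95% intervals came from the same fits. The labels call the replicates biological, and p-values over the libraries of a clone measure the spread within it. Alternatives were RLE factors, DESeq2 1.42.0, no filter, limma 3.58.1 on log2(TPM + 1), a replicate block, leaving out each library or clone, and fits with the clone as the unit. The scripts were tested on simulated data. No 2 libraries of a clone differed by as little as sampling noise (chi-square per degree of freedom at least 3.78).

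The members and gene lists were chosen with earlier results of these data known. Named genes were all members, LMNB1, up to 4 called genes of each list by smallest adjusted p (or the 2 most abundant), and the 3 genes most like each called member. Genes outside this rule were named for their position beside a member or after their values were seen. Symbols came from a separate list of gene names, which covered 60463 of the 60708 identifiers. Positions came from GENCODE 29, which held 58396 of 60708 identifiers, and promoter sequences from RefSeq (GRCh38.p14).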

Additional observations from a re-analysis of the deposited data

Results flagged for a closer look

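The LmnB1 clones differed in 2 members, by the test between clones. SUV39H2 was higher in LmnB1_16 than in LmnB1_6 by 0.28 on the log2 scale (edgeR adjusted p = 0.0134), with all 3 LmnB1_16 libraries (26.9 to 30.2 CPM) above all 3 LmnB1_6 libraries (21.3 to 24.8 CPM). CBX1 had a log2 fold change of -0.25 in the same contrast (edgeR adjusted p = 0.00235), with 177 to 188 CPM in LmnB1_16 and 211 to 226 CPM in LmnB1_6. The call of SUV39H2 was lost without LmnB1_6 replicate 1 (edgeR adjusted p = 0.0765) or LmnB1_16 replicate 2 (0.0504). By limma on log2(TPM + 1), CBX1 was called and SUV39H2 was not. On the deposited TPM the SUV39H2 libraries overlapped, at 13.8 to 22.2 TPM in LmnB1_6 and 20.3 to 26.1 TPM in LmnB1_16.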

How the results depend on the processing

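The count of 4 members called between the constructs was 2 with a replicate block (EHMT2 and TRIM28), 2 without the clone mCherry_3, 1 without LmnB1_6, 0 with counts summed per clone, 0 with clone as a random effect, 8 with the mean of clones in the fit with clones as groups, and 2 to 5 with single libraries left out. Leaving out single libraries gave 1 to 3 members in LmnB1_16 against mCherry_4, 1 to 3 in LmnB1_16 against LmnB1_6 (1 by limma on TPM) and 0 to 1 called in all 4 contrasts. SETDB1 turned sign with limma on TPM (-0.030) and without the clone mCherry_4 (-0.032), and EHMT1 without the clone mCherry_3 (0.0041). WIZ did so without mCherry_4 (-0.0094) and LmnB1_6 (-0.066), ZNF644 without mCherry_3 (-0.018) and PRDM16 without LmnB1_6 (0.12). None of these was called. Of all genes 2743 were called, against 1673 by limma on TPM, 1648 with the replicate block, 647 without mCherry_3, 4958 without mCherry_4, 1263 without LmnB1_6, 4808 without LmnB1_16, 0 summed per clone, 163 with the clone as a random effect, 7141 with the mean of clones and 1392 to 3078 with single libraries left out. Fewer samples enter the fits without a clone, and the cause of these changes, those without a clone included, was not tested. SUV39H2 had an edgeR adjusted p of 0.0550 without the filter on low counts. The labels tie no replicate number to a shared batch, and not every same-numbered pair correlated over 0.1, so the numbers were not taken as pairs. Deviations of same-numbered libraries of different clones correlated at -0.0541 to 0.181 (18 pairs) and those of other libraries at -0.101 to 0.0923 (36 pairs). The 3 pairs over 0.1 were those of replicate 3 among mCherry_4, LmnB1_6 and LmnB1_16 (0.119, 0.122 and 0.181), above all other pairs, while mCherry_3 replicate 1 correlated best with LmnB1_16 replicate 2 (0.0559). With the block SUV39H1 and SUV39H2 had edgeR adjusted p of 0.0569 and 0.0682, and SETDB2 was called in LmnB1_6 against mCherry_4. Depth limits SETDB2 most, at 109 to 231 counts per library.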
